A study of Mus musculus with 6 samples.

Results

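The genes described here encode the proteasome and the proteins that assemble it. They were chosen by symbol, as names made of Psm, a letter from a to g and a number, plus Pomp, which gave 49 of 55363 symbols measured in the mouse oviduct. Whole oviducts came from pregnant females aged 6 to 8 weeks, collected on gestational day 3, with the vaginal plug as day 1. Of 6 RNA-seq libraries, 3 were labelled Mettl3 d/d and 3 Mettl3 f/f. Mettl3 is the methyltransferase that puts N6-methyladenosine on RNA. In common notation d/d is the deleted allele and f/f the loxP-flanked one, and the labels name no Cre driver and no deleted exon. Values are treated as FPKM, which scales a gene's fragments to its transcript length and to the depth of the library, so levels of different genes can be set side by side per length.

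The proteasome degrades proteins that carry ubiquitin chains. Its barrel-shaped core, the 20S particle, is built of rings of alpha subunits (Psma genes) around rings of beta subunits (Psmb genes), and Psmb5, Psmb6 and Psmb7 carry the constitutive proteolytic sites. Under interferon, and constantly in many immune cells, Psmb8, Psmb9 and Psmb10 are made and take the places of Psmb5, Psmb6 and Psmb7 in newly built cores. The result is the immunoproteasome, which changes the peptides offered on MHC class I. The 19S cap, made of ATPases (Psmc genes) and non-ATPases (Psmd genes), binds and unfolds substrates, and other activators (Psme genes) can dock in its place.

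The libraries held between 16600000 and 17800000 fragments, as implied by the smallest steps among the low values, and Ovgp1, Pax8 and Foxj1, which mark secretory and ciliated oviduct cells, were detected in all 6. Mettl3 itself, which the labels would place lower in d/d oviducts, was at 19.8, 20.3 and 24.5 FPKM in d/d replicates 1 to 3, against 11.8, 12.1 and 13.2 FPKM in f/f replicates 1 to 3 (log2 change 0.75, SE 0.12, limma adjusted p = 0.0145; 0.0722 without f/f replicate 2). It was thus higher in the libraries labelled d/d, and a value per gene does not show whether an exon is missing, so every direction given here rests on the labels. F/f replicate 1 and d/d replicate 1 stood apart, at the high and the low end of ciliated cell markers: 6 multiciliated cell markers summed to 25.1, 123 and 78.9 in d/d replicates 1 to 3 and 234, 116 and 72.1 in f/f replicates 1 to 3 (FPKM), and 5 smooth muscle markers to 3438, 2096 and 2782 in d/d replicates 1 to 3 and 1516, 3739 and 3746 in f/f replicates 1 to 3. Mitochondrial genes took 6.5, 6.76 and 9.7% of the FPKM in d/d replicates 1 to 3 and 4.47, 5.7 and 3.61% in f/f replicates 1 to 3.

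Of the 49 genes, 46 had a mean of at least 1 FPKM and were tested, and 2 rose and 0 fell in d/d oviducts (limma on log2(FPKM + 1), Benjamini-Hochberg adjusted p under 0.05 over all features). That is 4.35% of the 46, beside 11.0% of all 15438 features tested, of which 6.04% passed as higher and 4.97% as lower. At an unadjusted p under 0.05, 9 were higher and 1 was lower, beside 29.6% of all features in either direction. The median log2 change of the 46 was 0.09, beside -0.01 over all features tested. The groups did not overlap in 15 genes, against 35.6% of all features: all d/d values lay above f/f in 13 (28.3%, against 18.1% of all features) and below it in 2 (4.35%, against 17.4%). The largest upward differences belonged to Psmb9 and Psmb8, and they missed the threshold.

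**Figure D1:**
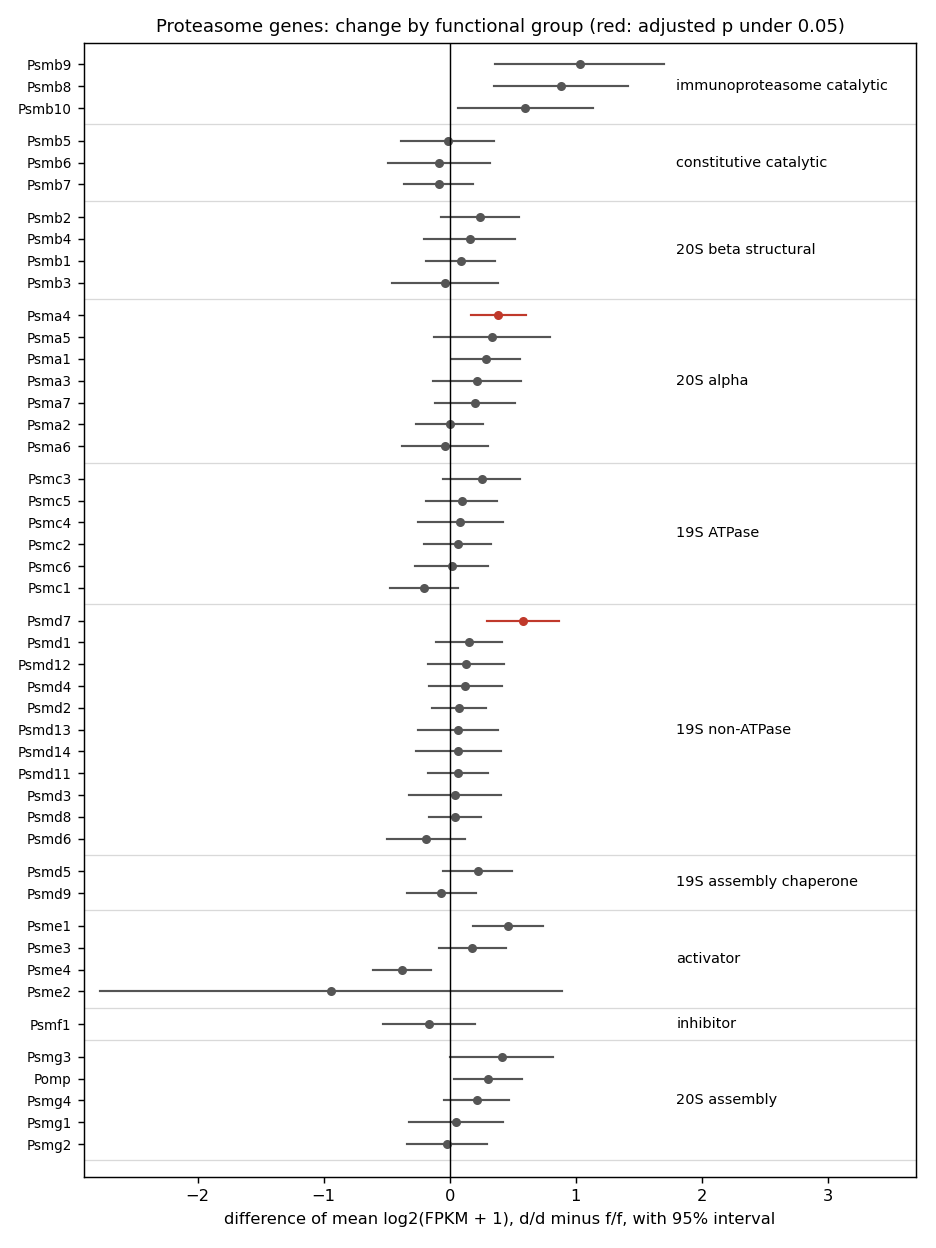
Difference of mean log2(FPKM + 1), taken as d/d less f/f, for the 46 tested genes by functional group, with the 95% interval of the limma fit (n = 3 libraries per group). Red marks Psmd7 and Psma4, which passed the threshold; Psmb8, Psmb9 and Psmb10 lie at 0.88, 1.03 and 0.60, while Psmb5, Psmb6 and Psmb7 lie between -0.09 and -0.01.

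The promoter windows of 5 genes are shown because the contrast below sets interferon-inducible genes against constitutive ones. Each runs from 250 bases before to 50 bases after a RefSeq transcription start, is read on the gene's own strand and comes from GRCm38.p6. Windows were matched for 41 of the 49 genes; Psmb7 and Psmd7 are not among them. Psmb8 (chr17:34197945-34198244, plus strand) and Psmb9 (chr17:34187281-34187580, minus strand) are neighbours in the MHC region. Psme1 is at chr14:55578244-55578543 (plus strand), Psmb5 at chr14:54617946-54618245 (minus strand) and Psmb6 at chr11:70525107-70525406 (plus strand). The windows of Psmb8, Psmb9 and Psme1 lie wholly inside the annotated gene spans, downstream of the annotated gene starts. Those of Psmb5 and Psmb6 cross the annotated gene starts, so the windows of inducible and constitutive genes are not placed alike. Capitals mark matches to the 3 motifs named after the sequences.
Psmb8: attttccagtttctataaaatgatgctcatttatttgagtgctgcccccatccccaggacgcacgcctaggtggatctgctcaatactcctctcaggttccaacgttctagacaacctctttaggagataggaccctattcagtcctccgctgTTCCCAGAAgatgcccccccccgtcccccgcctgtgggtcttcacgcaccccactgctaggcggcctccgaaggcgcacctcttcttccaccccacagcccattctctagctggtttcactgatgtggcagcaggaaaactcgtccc
Psmb9: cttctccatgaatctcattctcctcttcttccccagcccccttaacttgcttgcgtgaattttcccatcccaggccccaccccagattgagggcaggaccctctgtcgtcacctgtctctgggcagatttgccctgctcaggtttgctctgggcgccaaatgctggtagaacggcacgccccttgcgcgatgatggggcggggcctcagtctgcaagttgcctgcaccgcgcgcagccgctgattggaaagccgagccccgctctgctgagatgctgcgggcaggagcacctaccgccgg
Psme1: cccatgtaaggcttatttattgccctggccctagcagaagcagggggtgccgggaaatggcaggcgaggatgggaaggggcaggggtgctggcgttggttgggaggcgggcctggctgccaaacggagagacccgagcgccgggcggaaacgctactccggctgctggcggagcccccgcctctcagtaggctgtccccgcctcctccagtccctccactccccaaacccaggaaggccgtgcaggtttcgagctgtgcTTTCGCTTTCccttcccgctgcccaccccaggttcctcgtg
Psmb5: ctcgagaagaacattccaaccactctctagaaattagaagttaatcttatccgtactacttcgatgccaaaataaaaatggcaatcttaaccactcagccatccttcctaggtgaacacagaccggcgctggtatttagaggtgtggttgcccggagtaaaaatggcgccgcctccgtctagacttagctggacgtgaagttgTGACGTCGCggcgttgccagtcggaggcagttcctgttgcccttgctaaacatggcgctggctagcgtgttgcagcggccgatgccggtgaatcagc
Psmb6: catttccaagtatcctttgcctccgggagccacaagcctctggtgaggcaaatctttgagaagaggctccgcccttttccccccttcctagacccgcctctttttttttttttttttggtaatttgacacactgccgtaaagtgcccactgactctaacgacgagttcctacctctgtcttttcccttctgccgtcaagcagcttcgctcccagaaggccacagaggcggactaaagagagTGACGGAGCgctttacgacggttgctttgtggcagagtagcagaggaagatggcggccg

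The motifs, searched on both strands, were the core of the interferon-stimulated response element (GAAA, any 2 bases, GAAA), TTCNNNGAA, the gamma-activated sequence of interferon-responsive promoters, and TGACNNNGC, the core of the antioxidant response element. The window of Psme1 held the first on the minus strand, with its leftmost base 10 bases after the start. That of Psmb8 held the second, 97 bases before the start. The windows of Psmb5 and Psmb6 held the third, 47 and 9 bases before the start. No match to these letters was in the window of Psmb9, which leaves the bases before its annotated gene start unsearched. Of all 32851 windows of that length, 3.44% held the first motif, 8.30% the second and 12.4% the third, beside 5, 3 and 6 of the 44 windows of proteasome genes. The first was in windows of Psmb3, Psmd4, Psmd9, Psme1 and Psmg4, and the second in windows of Psmb8, Psmd2 and Psmg1. The third was in windows of Psmb5, Psmb6, Psmc6, Psmd12, Psmd9 and Psme4. Each motif was thus also in genes other than the 5 shown. A match describes letters and is no evidence of binding.

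The immunoproteasome catalytic genes had higher mean levels in d/d oviducts, with wide spread among the d/d libraries, and none of the 3 passed the threshold. Psmb8 (ENSMUSG00000024338; chromosome 17, 34197721 to 34201454, GRCm38), which replaces the chymotrypsin-like subunit, was at 68.5, 95.4 and 50.5 FPKM in d/d replicates 1 to 3, against 38.9, 33.5 and 39.03 FPKM in f/f replicates 1 to 3. The groups did not overlap, and d/d replicate 2 stood highest. The means were 71.5 ± 22.6 FPKM in d/d and 37.1 ± 3.15 FPKM in f/f (SD, n = 3 each), 1.93-fold higher (log2 change 0.88, SE 0.22, limma adjusted p = 0.0511). Its adjusted p ran from 0.0423 to 0.163 over the alternatives, and passed with a pseudocount of 0.1 (0.0495) and without d/d replicate 3 (0.0423).

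Psmb9 (ENSMUSG00000096727; chromosome 17, 34181987 to 34187764), which replaces the caspase-like subunit, was at 26.3, 46.3 and 22.3 FPKM in d/d replicates 1 to 3, against 17.96, 11.96 and 13.3 FPKM in f/f replicates 1 to 3. All 3 d/d libraries were above all 3 f/f libraries, and d/d replicate 2 again stood highest. The means were 31.6 ± 12.9 FPKM in d/d and 14.4 ± 3.15 FPKM in f/f (SD, n = 3 each), 2.19-fold higher (log2 change 1.03, SE 0.28, limma adjusted p = 0.0629). The spans of Psmb9 and Tap1 overlap by 212 bases on opposite strands. Since no source used here gives the strand setting of the counting, reads in such a shared stretch cannot be told apart. The same limit holds for longer overlaps on opposite strands, such as Psmb7 with Nek6 (6571 bases) and Psmc3 with Slc39a13 (4579 bases). Nek6 was at 13.03, 13.2 and 11.9 FPKM in d/d replicates 1 to 3, against 6.78, 5.81 and 6.14 FPKM in f/f replicates 1 to 3.

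Psmb10 (ENSMUSG00000031897; chromosome 8, 105935735 to 105938444), which replaces the trypsin-like subunit, was at 41.5, 55.9 and 29.6 FPKM in d/d replicates 1 to 3, against 23.6, 29.4 and 27.5 FPKM in f/f replicates 1 to 3. D/d replicate 3 was barely above the highest f/f library. The means were 42.4 ± 13.2 FPKM in d/d and 26.9 ± 2.92 FPKM in f/f (SD, n = 3 each), 1.58-fold higher (log2 change 0.60, SE 0.23, limma adjusted p = 0.136).

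The constitutive catalytic genes overlapped between the groups. Psmb5 (ENSMUSG00000022193; chromosome 14, 54614119 to 54618022), the chymotrypsin-like subunit, was at 33.99, 34.6 and 38.6 FPKM in d/d replicates 1 to 3, against 30.7, 33.8 and 45.1 FPKM in f/f replicates 1 to 3 (log2 change -0.01, with a 95% interval of -0.38 to 0.35 and limma adjusted p = 0.963). Psmb6, the caspase-like subunit and the most abundant of the 6 catalytic genes, was at 138, 94.9 and 134 FPKM in d/d replicates 1 to 3, against 116, 126 and 143 FPKM in f/f replicates 1 to 3 (log2 change -0.08, with a 95% interval of -0.49 to 0.32 and limma adjusted p = 0.779). Psmb7, the trypsin-like subunit, was at 53.5, 49.97 and 52.3 FPKM in d/d replicates 1 to 3, against 48.8, 54.7 and 63.03 FPKM in f/f replicates 1 to 3 (log2 change -0.09, with a 95% interval of -0.36 to 0.19 and limma adjusted p = 0.657). D/d replicate 2, the highest library for all 3 immunoproteasome genes, was the lowest of all 6 for Psmb6.

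**Figure D2:**
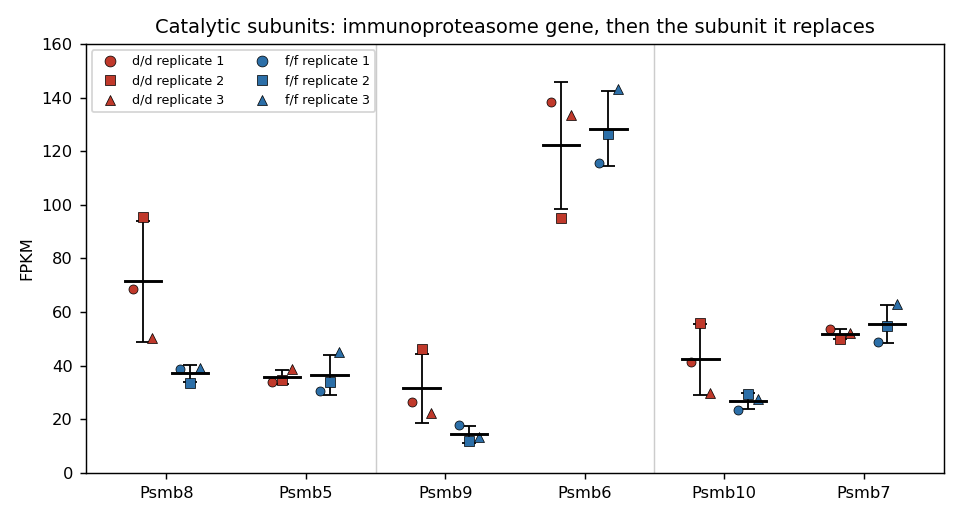
FPKM of each immunoproteasome catalytic gene and of the constitutive gene it replaces, d/d left of f/f, 1 point per library, with the mean and SD (n = 3). The groups do not overlap for Psmb8, Psmb9 and Psmb10, whose highest points are d/d replicate 2 (95.4, 46.3 and 55.9 FPKM), and they overlap for Psmb5, Psmb6 and Psmb7.

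Within each library, the immunoproteasome gene was set against the gene it replaces. The FPKM ratio of Psmb8 to Psmb5 was 2.02, 2.75 and 1.31 in d/d replicates 1 to 3, set beside 1.27, 0.990 and 0.866 in f/f replicates 1 to 3. For Psmb9 to Psmb6 it was 0.191, 0.487 and 0.167 in d/d replicates 1 to 3, set beside 0.155, 0.0947 and 0.0929 in f/f replicates 1 to 3. For Psmb10 to Psmb7 it was 0.776, 1.12 and 0.566 in d/d replicates 1 to 3, set beside 0.484, 0.537 and 0.437 in f/f replicates 1 to 3. All 3 ratios were higher in every d/d library than in any f/f library, and the gap was narrow between d/d replicate 3 and the highest f/f library. On the log2(FPKM + 1) scale the differences were 0.90, 1.12 and 0.69, which is 1.86-fold, 2.17-fold and 1.61-fold. Each had a two-sided exact permutation p of 0.1, the smallest that 3 against 3 allows, and 0.1 adjusted over the 3 ratios, so the design could not pass 0.05. Without d/d replicate 2 they were 0.65, 0.64 and 0.44.

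**Figure D3:**
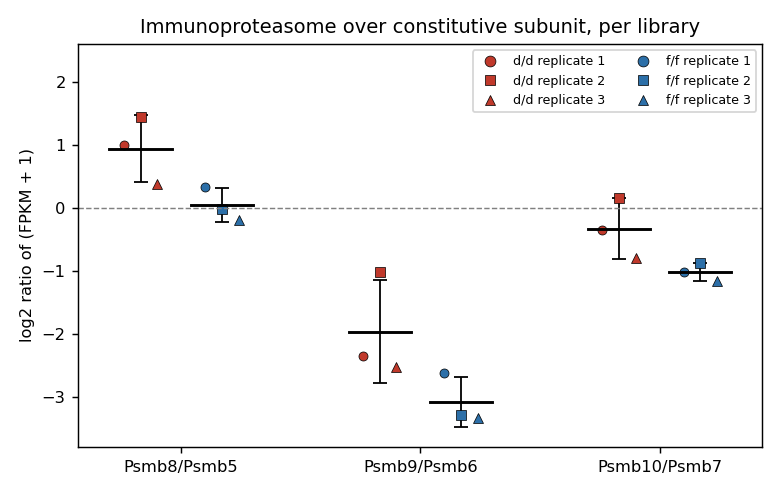
Log2 ratio of each immunoproteasome catalytic gene to the constitutive gene it replaces in the same library, d/d left of f/f, with mean and SD (n = 3). Every d/d point lies above every f/f point of its ratio, and among d/d libraries replicate 2 is highest (1.44, -1.02 and 0.16) and replicate 3 lowest (0.38, -2.53 and -0.80).

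The activators differed among themselves, and 0 of 4 passed, beside 11.0% of all features in either direction. Psme1 (ENSMUSG00000022216; chromosome 14, 55578123 to 55581529), the alpha chain of the interferon-inducible 11S activator, was at 132, 142 and 117 FPKM in d/d replicates 1 to 3, against 95.7, 86.2 and 101 FPKM in f/f replicates 1 to 3. The groups did not overlap, with means of 131 ± 12.8 FPKM in d/d and 94.3 ± 7.54 FPKM in f/f (SD, n = 3 each). The change missed the threshold (log2 change 0.46, SE 0.12, limma adjusted p = 0.0501; 0.0481 with TMM scaling). Psme2, the beta chain that pairs with it, was at 9.04, 8.25 and 9.23 FPKM in d/d replicates 1 to 3, against 9.37, 7.66 and 73.8 FPKM in f/f replicates 1 to 3. F/f replicate 3 alone was high and set the sign: the log2 change was -0.94 (limma adjusted p = 0.454) with it and 0.05 (0.857) without it. A near-identical copy, Psme2b (99.4% identity over 794 bases), was listed at 0 in all 6 libraries.

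Psme3, a nuclear activator homologous to them, was at 31.7, 37.6 and 39.3 FPKM in d/d replicates 1 to 3, against 32.7, 32.4 and 30.2 FPKM in f/f replicates 1 to 3 (log2 change 0.18, limma adjusted p = 0.332). Psme4, a large monomeric activator, was at 17.2, 19.2 and 18.8 FPKM in d/d replicates 1 to 3, against 23.6, 25.4 and 23.6 FPKM in f/f replicates 1 to 3. All d/d libraries were below all f/f libraries, with means of 18.4 ± 1.07 FPKM in d/d and 24.2 ± 1.01 FPKM in f/f (SD, n = 3 each), and the difference missed the threshold (log2 change -0.38, SE 0.10, limma adjusted p = 0.0537; 0.0518 to 0.175 over the alternatives). Psmf1, which encodes a proteasome inhibitor, was at 20.6, 19.5 and 17.1 FPKM in d/d replicates 1 to 3, against 24.2, 23.4 and 17.3 FPKM in f/f replicates 1 to 3, with overlap (log2 change -0.16, limma adjusted p = 0.522).

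In the 19S cap, 1 of 17 subunit genes with Psmc or Psmd symbols rose and 0 fell (5.88%, near the 6.04% of all features called higher). Psmd7 (ENSMUSG00000039067; chromosome 8, 107580381 to 107588464), the partner of the deubiquitinase Psmd14 in the lid, was at 69.7, 75.2 and 88.01 FPKM in d/d replicates 1 to 3, against 47.3, 53.9 and 52.9 FPKM in f/f replicates 1 to 3. The groups stood apart, with means of 77.7 ± 9.38 FPKM in d/d and 51.4 ± 3.55 FPKM in f/f (SD, n = 3 each), 1.51-fold higher (log2 change 0.58, SE 0.12, limma adjusted p = 0.0289). With single libraries left out the call held only without d/d replicate 1 (adjusted p from 0.0454 to 0.0920). Psmd14 itself, chosen after its values were seen, was at 40.5, 37.97 and 42.2 FPKM in d/d replicates 1 to 3, against 31.4, 39.96 and 44.4 FPKM in f/f replicates 1 to 3 (log2 change 0.07, limma adjusted p = 0.777).

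The other 10 non-ATPase genes had log2 changes from -0.18 (Psmd6) to 0.15 (Psmd1). The most abundant of the 11, Psmd3, was at 70.01, 85.1 and 105 FPKM in d/d replicates 1 to 3, against 85.5, 82.97 and 80.5 FPKM in f/f replicates 1 to 3, widely spread in d/d. The least abundant, Psmd11, was at 20.6, 18.9 and 22.1 FPKM in d/d replicates 1 to 3, against 19.2, 19.2 and 20.2 FPKM in f/f replicates 1 to 3. Both sets of values overlapped. Of Psmd13, which shares its span and strand with the abundant pseudogene Gm15542, the level is uncertain.

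The 6 ATPase genes, whose products unfold substrates, lay close together, and 0 of 6 passed, beside 11.0% of all features in either direction. The most abundant, Psmc3, was at 71.4, 67.3 and 72.3 FPKM in d/d replicates 1 to 3, against 49.6, 61.2 and 67.01 FPKM in f/f replicates 1 to 3 (log2 change 0.25, limma adjusted p = 0.241). The least abundant, Psmc6, was at 40.7, 45.1 and 49.2 FPKM in d/d replicates 1 to 3, against 39.3, 46.5 and 47.8 FPKM in f/f replicates 1 to 3 (log2 change 0.02, limma adjusted p = 0.946). Psmc3 lay higher in every d/d library, and Psmc6 overlapped. Psmc1, chosen after its values were seen, lay lower in every d/d library, at 43.4, 51.8 and 49.8 FPKM in d/d replicates 1 to 3, against 52.5, 53.7 and 61.3 FPKM in f/f replicates 1 to 3 (log2 change -0.20, limma adjusted p = 0.276). Of the chaperones that help build the cap base, Psmd5 was at 21.5, 17.6 and 18.7 FPKM in d/d replicates 1 to 3, against 16.6, 17.1 and 15.3 FPKM in f/f replicates 1 to 3 (log2 change 0.22, limma adjusted p = 0.249) and Psmd9 had a log2 change of -0.07 (limma adjusted p = 0.741). Psmd10, another of these chaperones, was listed at 0 in all 6 libraries, and an exact 0 for a widely used gene can be a failed estimate.

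In the constitutive core, 1 of 14 genes rose and 0 fell (7.14%, near the 6.04% of all features called higher). Psma4 (ENSMUSG00000032301; chromosome 9, 54950790 to 54958030), an alpha ring subunit, was at 54.1, 56.6 and 55.1 FPKM in d/d replicates 1 to 3, against 39.1, 43.1 and 44.1 FPKM in f/f replicates 1 to 3. The d/d libraries were nearly equal and all above f/f, with means of 55.3 ± 1.24 FPKM in d/d and 42.1 ± 2.66 FPKM in f/f (SD, n = 3 each), 1.31-fold higher (log2 change 0.39, SE 0.09, limma adjusted p = 0.0441). The call was lost whichever library was left out (adjusted p from 0.0629 to 0.126), with scaling to protein-coding nuclear genes (0.0519) and without the variance trend (0.0704). Psma7, the most abundant alpha gene, was at 128, 140.3 and 154 FPKM in d/d replicates 1 to 3, against 105, 126 and 138 FPKM in f/f replicates 1 to 3 (log2 change 0.20, limma adjusted p = 0.364). Psma5, the least abundant, was at 1.85, 2.58 and 2.06 FPKM in d/d replicates 1 to 3, against 1.27, 1.56 and 1.68 FPKM in f/f replicates 1 to 3 (log2 change 0.34, limma adjusted p = 0.298). Among beta genes without a catalytic site, Psmb4 was highest, at 119.8, 142 and 171 FPKM in d/d replicates 1 to 3, against 116, 130.3 and 138 FPKM in f/f replicates 1 to 3 (log2 change 0.16, limma adjusted p = 0.524), and Psmb3 lowest, at 4.71, 5.15 and 7.09 FPKM in d/d replicates 1 to 3, against 5.03, 6.01 and 6.297 FPKM in f/f replicates 1 to 3 (log2 change -0.04, limma adjusted p = 0.909). Psmb4 and Psmb3 overlapped between groups, as did Psma7, while Psma5 did not. For Psma5 and Psmb3 this holds for the gene alone, without the near-identical copies described below.

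Of the 5 core assembly genes, 0 passed, beside 11.0% of all features in either direction. Pomp, which guides beta ring assembly and is degraded by the finished core, was at 78.3, 79.8 and 92.1 FPKM in d/d replicates 1 to 3, against 63.2, 64.5 and 74.3 FPKM in f/f replicates 1 to 3. The groups did not overlap (log2 change 0.30, SE 0.11, limma adjusted p = 0.134). Psmg3, the least abundant, works with Psmg4 in alpha ring assembly and was at 17.5, 16.4 and 21.7 FPKM in d/d replicates 1 to 3, against 10.9, 15.6 and 14.6 FPKM in f/f replicates 1 to 3, also without overlap (log2 change 0.41, limma adjusted p = 0.165). Psmg4, Psmg1 and Psmg2 had log2 changes of 0.21, 0.05 and -0.02 (limma adjusted p = 0.243, 0.861 and 0.935).

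Core genes restricted to other tissues were near or at 0. Psma8, an alpha subunit of the testis proteasome, was at 0.364, 0.189 and 0.563 FPKM in d/d replicates 1 to 3, against 0.0787, 0.485 and 0.286 FPKM in f/f replicates 1 to 3, with overlap, and lay below the level tested. Psmb11, the beta subunit of thymic cortical epithelium, was listed at 0 in all 6 libraries.

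Means over the 6 libraries of the 14 constitutive core genes, whose products stand in equal number in the particle, spanned 74.3-fold, with Psma5 at 1.83 FPKM and Psmb4 at 136 FPKM. The transcripts of 16 of the 49 genes matched 29 annotated copies at 90% identity or more, of which 17 were above 0 in at least 1 library. Gm13835, a pseudogene identical to Psma3 over 685 bases, was at 122, 145 and 151 FPKM in d/d replicates 1 to 3, against 124, 118 and 150.4 FPKM in f/f replicates 1 to 3, while Psma3 was at 19.4, 18.4 and 18.6 FPKM in d/d replicates 1 to 3, against 13.9, 14.9 and 19.99 FPKM in f/f replicates 1 to 3. The copy was several times above the gene in every library. Of the summed FPKM of gene and copies, 97.4% stood under the copies for Psma5, 90.9% for Psmb3 and 88.7% for Psma3.

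With the copies added, an alternative chosen after seeing the data, the same 14 genes lay between 36.2 FPKM (Psmb5) and 156 FPKM (Psma3), a 4.31-fold range. Psma5 then averaged 76.3 ± 3.58 FPKM in d/d and 66.3 ± 9.71 FPKM in f/f (SD, n = 3 each). Psmb3 averaged 70.5 ± 7.12 FPKM in d/d and 54.5 ± 8.85 FPKM in f/f (SD, n = 3 each), with a log2 change of 0.37 (limma adjusted p = 0.150) in place of -0.04 alone. With copies, the groups overlapped for Psma5 (72.1 FPKM in d/d replicate 1, 77.05 FPKM in f/f replicate 3). They did not overlap for Psmb3 (65.1 FPKM in d/d replicate 2, 61.8 FPKM in f/f replicate 2). Both are the reverse of the genes alone. Psma4 with its copy kept its call (log2 change 0.39, limma adjusted p = 0.0452). Reads of a gene placed on its copy and transcription of the copy cannot be told apart from such values.

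**Figure D4:**
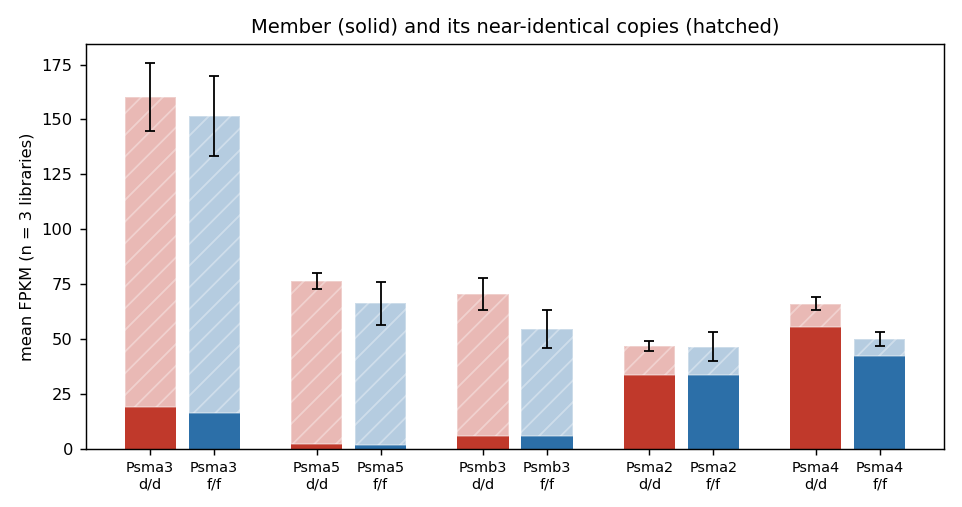
Mean FPKM of 5 core genes (solid) and of their near-identical copies (hatched), d/d left of f/f; the error bar is the SD of the sum (n = 3 libraries). Most of the sum lies in the copies for Psma3, Psma5 and Psmb3 (88.7%, 97.4% and 90.9%), and less for Psma2 and Psma4 (28.4% and 16.3%).

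The libraries ordered constitutive and inducible genes differently. Of the 31 constitutive core and cap genes, 23 had their highest d/d value in d/d replicate 3 (74.2%, against 33.1% of all features tested) and 28 their lowest f/f value in f/f replicate 1 (90.3%, against 40.2%). They summed to 1810, 1820 and 2079 in d/d replicates 1 to 3 and 1603, 1784 and 1923 in f/f replicates 1 to 3 (FPKM), with overlap. Psmb8, Psmb9 and Psmb10 summed to 136, 198 and 102 in d/d replicates 1 to 3 and 80.5, 74.8 and 79.9 in f/f replicates 1 to 3, without overlap. Each of these 3 and Psme1 had d/d replicate 2 highest, then 1, then 3. F/f replicate 1 is also the library with high multiciliated and low smooth muscle markers, and the part of tissue makeup in these orders was not tested.

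Among genes that act with the immunoproteasome in antigen presentation and interferon signalling, 25 of 26 listed were tested, and 7 rose and 0 fell (28.0%, against 6.04% of all features higher). The median log2 change was 0.65. H2-K1, an MHC class I heavy chain, was at 1371, 2369 and 1534 FPKM in d/d replicates 1 to 3, against 791, 529.9 and 397 FPKM in f/f replicates 1 to 3 (log2 change 1.63, SE 0.31, limma adjusted p = 0.0241). H2-D1, another class I chain, rose 2.17-fold. The class II genes H2-Aa, H2-Ab1, H2-Eb1 and Cd74 rose 2.16, 2.16, 2.32 and 2.36-fold, and the interferon gamma receptor gene Ifngr1 rose 1.73-fold (limma adjusted p from 0.00968 for Ifngr1 to 0.0287 for H2-D1). Without f/f replicate 2 the number passing was 0, and without f/f replicate 3 it was 3. These 2 fits called 1.09% and 3.37% of all features in either direction, beside 11.0% with all libraries. The list was chosen with results of these data known, so its count is a description.

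Tap1, a peptide transporter gene beside Psmb9, was at 24.1, 40.6 and 16.8 FPKM in d/d replicates 1 to 3, against 17.1, 10.9 and 10.7 FPKM in f/f replicates 1 to 3. D/d replicate 3 lay below f/f replicate 1, so the groups overlapped (log2 change 0.96, limma adjusted p = 0.109). Irf1, a transcription factor of the interferon response, was at 31.2, 49.9 and 26.1 FPKM in d/d replicates 1 to 3, against 20.5, 19.98 and 23.1 FPKM in f/f replicates 1 to 3, without overlap (log2 change 0.68, limma adjusted p = 0.105). Tap1 and Irf1 were chosen after their values were seen. In 14 of the 25 genes the d/d libraries stood in the order of Psmb8, an order held by 15.0% of all features tested.

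**Figure D5:**
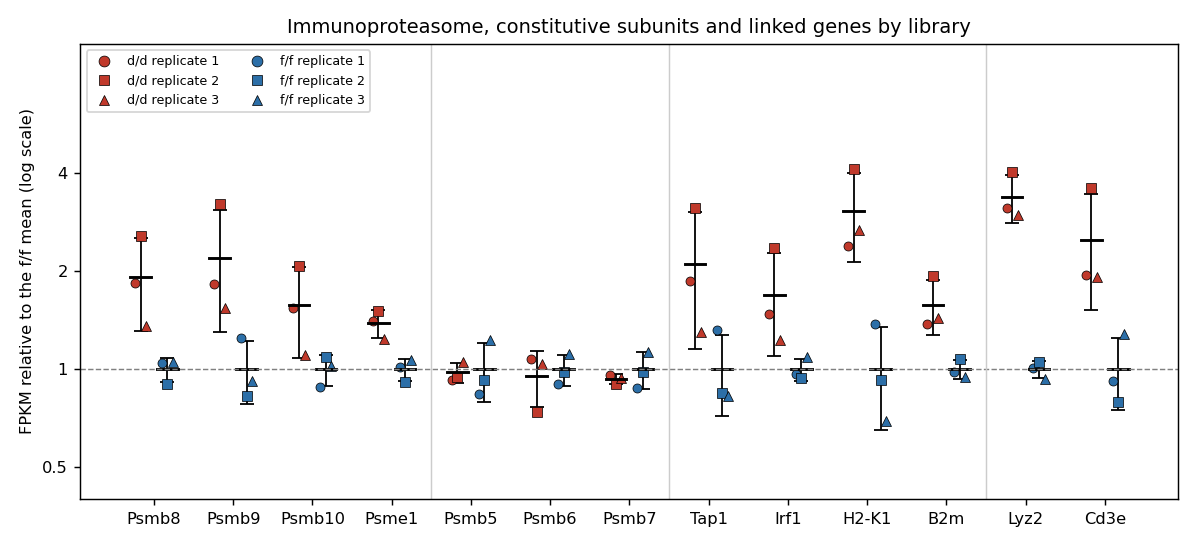
FPKM relative to the f/f mean, on a log axis, for inducible and constitutive proteasome genes, linked genes and the immune markers Lyz2 and Cd3e, d/d left of f/f, with mean and SD (n = 3). D/d replicate 2 is the highest point of Psmb8 (2.57), Psmb9 (3.21), Tap1 (3.14), H2-K1 (4.14), Lyz2 (4.05) and Cd3e (3.61). Lyz2 does not stand for its list: of 12 myeloid markers, 8 have d/d replicate 1 highest and 3 d/d replicate 2. Of 6 tested T and NK markers, 5 have d/d replicate 2 highest. Psmb5, Psmb6 and Psmb7 stay between 0.740 and 1.23.

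Immune cell markers differed by cell type, and each count of called markers stands beside 6.04% of all features called higher and 4.97% called lower. Of 12 macrophage and myeloid markers 11 rose and 0 fell, with a median log2 change of 1.42, and they summed to 1589, 1542 and 1197 in d/d replicates 1 to 3 and 552, 478 and 432 in f/f replicates 1 to 3 (FPKM). Lyz2, the macrophage lysozyme, was at 431, 558 and 410.2 FPKM in d/d replicates 1 to 3, against 139, 145 and 129 FPKM in f/f replicates 1 to 3. The myeloid sums did not overlap. Of the 12 markers 8 had their highest d/d value in d/d replicate 1 and 1 in d/d replicate 3. The other 3, Lyz2, Ptprc and Csf1r, had it in d/d replicate 2, as did Psmb8, Psmb9 and Psmb10.

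Of 9 T and NK cell markers 6 were tested and 0 rose and 0 fell, and they summed to 17.8, 30.4 and 15.3 in d/d replicates 1 to 3 and 15.98, 11.4 and 11.98 in f/f replicates 1 to 3 (FPKM). Cd3e, of the T cell receptor complex, was at 2.63, 4.88 and 2.59 FPKM in d/d replicates 1 to 3, against 1.25, 1.07 and 1.73 FPKM in f/f replicates 1 to 3 (log2 change 0.86, limma adjusted p = 0.0785). The other tested markers of this list had log2 changes of 1.14 (Trbc2), 0.65 (Cd3g), 0.09 (Cd4), 0.06 (Gzma) and -0.11 (Nkg7). The marker genes named with values were chosen after their values were seen. Of 6 B and plasma cell markers 3 were tested and 1 rose and 0 fell, with sums of 106, 158 and 55.2 in d/d replicates 1 to 3 and 36.4, 26.5 and 10.1 in f/f replicates 1 to 3. Of 4 neutrophil markers 3 were tested and 1 rose and 0 fell, with sums of 73.0, 85.6 and 21.1 in d/d replicates 1 to 3 and 81.2, 3.19 and 2.18 in f/f replicates 1 to 3, which overlapped. Of 4 dendritic cell markers 1 was tested and 0 rose and 0 fell, with sums of 5.74, 7.29 and 3.33 in d/d replicates 1 to 3 and 3.999, 3.12 and 2.65 in f/f replicates 1 to 3. In whole tissue, more cells of a type and more RNA per cell cannot be told apart, and the part of these cells in the levels of Psmb8, Psmb9 and Psmb10 was not tested.

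Among other tissue markers, to be read against the same 6.04% higher and 4.97% lower of all features, 2 rose and 1 fell of 5 epithelial genes, 1 rose and 0 fell of 3 secretory, 0 rose and 0 fell of 6 multiciliated, 1 rose and 1 fell of 5 stromal and 0 rose and 1 fell of 5 smooth muscle genes. Of 4 endothelial genes 0 rose and 0 fell, of 3 mesothelial genes 0 rose and 0 fell, and of 6 proliferation genes 4 rose and 0 fell.

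The listed partners of the proteasome did not pass the threshold. They include ubiquitin handling genes, transcription factors and the cap subunits Adrm1 and Sem1, whose symbols lie outside the rule used here. Of 34 listed genes 33 were tested, and 0 rose and 0 fell in limma, beside 11.0% of all features called in either direction. At an unadjusted limma p under 0.05, 2 were higher and 2 lower, beside 29.6% of all features in either direction. The median log2 change of the 33 was -0.03. The most abundant, the polyubiquitin gene Ubb, was at 424, 393 and 414 FPKM in d/d replicates 1 to 3, against 425, 436 and 456 FPKM in f/f replicates 1 to 3 (log2 change -0.10, limma adjusted p = 0.584). Next came Uba1, the ubiquitin-activating enzyme, at 75.7, 80.5 and 109 FPKM in d/d replicates 1 to 3, against 84.7, 89.3 and 103 FPKM in f/f replicates 1 to 3 (log2 change -0.07, limma adjusted p = 0.801). Ubb was slightly lower in every d/d library, and Uba1 overlapped. Nfe2l1, which in human cells drives proteasome genes when the proteasome is inhibited, was at 92.9, 80.9 and 72.3 FPKM in d/d replicates 1 to 3, against 88.01, 87.3 and 85.9 FPKM in f/f replicates 1 to 3 (log2 change -0.09, limma adjusted p = 0.629). Nfe2l2, the oxidative stress factor of the same family, was at 97.5, 92.7 and 101 FPKM in d/d replicates 1 to 3, against 81.2, 56.1 and 60.5 FPKM in f/f replicates 1 to 3, without overlap (log2 change 0.57, limma adjusted p = 0.0575). Nfe2l1 and Nfe2l2 were chosen after their values were seen.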

How the data were processed

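The authors deposited 1 table per library with 55483 features, and the values are read here as FPKM. That unit is an inference from the values and from Cufflinks 2.2.1, listed beside HISAT2 2.2.1 and the builds mm9 and mm10 per the submitters' processing notes. Coordinates are from GENCODE M21 (GRCm38), which held 99.5% of the identifiers; rows sharing a symbol were summed. Features with a mean of at least 1 FPKM entered limma 3.58.1 (R 4.3.3; log2(FPKM + 1), variance trend, two-sided), which was also tested on simulated data; SE and 95% intervals come from that fit. Ratios were compared by exact permutation (scipy 1.17.1), and copies were sought with BLAST 2.17.0 (at least 90% identity over 200 bases and 60% of the copy). Fragments per library were implied from genes longer than 1500 bases under 0.1 FPKM. Genes named with values were the catalytic, activator, inhibitor, Pomp and tissue-restricted genes, those past the threshold, the highest and lowest of each other group, up to 8 called genes of the partner and antigen presentation lists or their 2 most abundant, and Mettl3; others, such as Lyz2 and Cd3e, were chosen after their values were seen. Genes, lists and motifs were chosen with earlier results of these data known. Replicates are not stated to be different animals, so the p-values cover only the variation among these libraries, possibly technical.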

Additional observations from a re-analysis of the deposited data

How the results depend on the processing

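Values in this paragraph are counts of called genes, shares of all features or log2 changes. Proteasome genes that rose numbered 2, against 3 with a pseudocount of 0.1 or TMM scaling, 1 with scaling to protein-coding nuclear genes or without the variance trend, and 0 to 1 with libraries left out; 0 fell under every alternative run. Antigen presentation genes that rose numbered 7, against 4 without the filter and 0 to 7 with libraries left out. Partner genes that rose numbered 0, against 0 to 1 with libraries left out. Cell type markers that rose numbered 21 and those that fell 3, against 10 and 1 without the filter, and 5 to 21 and 0 to 5 with libraries left out. The labels do not say whether the same replicate numbers pair the libraries. Correlations of deviations between same-numbered libraries were -0.22, -0.06 and 0.003, which with 3 libraries per group cannot settle it. With the replicate block, 0 proteasome genes, 3 antigen presentation genes and 11 markers rose, and 0 markers fell. All these counts moved along with calls over the whole table. The share of all features called in either direction was 11.0% in the main fit and 4.19% without the filter. It was 1.79% with the replicate block and 1.09 to 11.5% with libraries left out. The immunoproteasome ratio differences stayed positive with a pseudocount of 0.1, the replicate block and libraries left out, the alternatives run for them, at 0.65 to 1.18, 0.64 to 1.54 and 0.44 to 0.92. The sign turned, with a shift of over 1 SE, for Psmb3 with copies added (0.373). With libraries left out Psmb5 ran from -0.127 to 0.143, Psmb6 from -0.254 to 0.087 and Psme2 from -1.503 to 0.053. Their turn to positive came with a shift of over 1 SE without f/f replicate 3, d/d replicate 2 and f/f replicate 3, in that order. Smaller turns occurred too, such as Psmb5 without d/d replicate 1 (0.020) or d/d replicate 2 (0.007), and Psmb7 without f/f replicate 3 (0.007). The cause was not tested, apart from the copies and the single high Psme2 library. Levels under 1 FPKM, such as Psma8, were too low to test.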
